A study of Rattus norvegicus with 6 samples.

Results

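Blood vessel endothelium was followed through the neonatal kidney of a rat with inherited polycystic kidney disease, through 10 genes: *Pecam1*, *Kdr*, *Flt1*, *Tek*, *Vwf*, *Cdh5*, *Eng*, *Emcn*, *Plvap* and *Nos3*. Their probes were found by gene name. Of the 41012 probes other than controls on the array, 13 carry the name of 9 of these genes. The remaining gene, *Pecam1*, is printed as Pecam and was found through its accession, which makes 14 probes for 10 of the 15540 genes that could be named. The rats were of strain Han:SPRD, in which the Cy allele, a missense change in *Anks6*, causes cystic kidneys. Pools of total RNA from the left kidney came from Cy/Cy, Cy/+ and +/+ rats aged 7 or 3 days, with no treatment. The dye Cy5 marked the named pool and Cy3 marked +/+ RNA of equal age, on 1 array for each genotype and age and with no dye swap. The 2 ages were therefore the only repeats of a genotype (n = 2 arrays), and the labels do not say how many rats a pool held. A p-value against the reference or between Cy/Cy and Cy/+ thus reflects the spread between 2 arrays that also differ in age and slide. The fits against the arrays labelled +/+ held age as a term, so theirs reflects the array-to-array spread that remains. Neither measures the spread between rats. For age a p-value reflects the spread between channels that share arrays and slides.

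Endothelial cells line the glomerular, peritubular and larger vessels of the kidney, and in the newborn rat these vessels are still forming. KDR and FLT1 are receptors for vascular endothelial growth factors, TEK is the receptor for angiopoietins, and endoglin (*Eng*) is a co-receptor for ligands of the TGF-beta family. PECAM1 and VE-cadherin (*Cdh5*) sit at junctions between endothelial cells, endomucin (*Emcn*) and PLVAP on their surface, while von Willebrand factor (*Vwf*) is stored and secreted for clotting and *Nos3* encodes the endothelial nitric oxide synthase.

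Each gene was read by oligonucleotides of 60 bases. The probes of *Nos3*, *Plvap*, *Eng*, *Emcn*, *Vwf* and *Flt1* are shown, in lower case throughout. The first 5 of these genes passed the test in at least 1 comparison, as did *Kdr* and *Cdh5*. For *Vwf* a dim probe without usable signal is added, and for *Flt1* the 2 probes gave different readings. The probes of *Kdr*, *Pecam1*, *Cdh5* and *Tek* are not shown, although the 2 probes of *Cdh5* and of *Tek* also gave different readings.

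Nos3: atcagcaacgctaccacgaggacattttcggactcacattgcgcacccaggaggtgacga

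Plvap: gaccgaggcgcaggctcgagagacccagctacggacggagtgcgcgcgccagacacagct

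Eng: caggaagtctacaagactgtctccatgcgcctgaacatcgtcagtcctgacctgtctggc

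Emcn: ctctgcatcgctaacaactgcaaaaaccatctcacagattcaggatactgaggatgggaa

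Vwf, brighter probe: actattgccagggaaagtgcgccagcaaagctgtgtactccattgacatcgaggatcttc

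Vwf, dim probe: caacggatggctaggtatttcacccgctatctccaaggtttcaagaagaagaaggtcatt

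Flt1, brighter probe: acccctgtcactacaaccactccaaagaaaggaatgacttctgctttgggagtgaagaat

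Flt1, dim probe: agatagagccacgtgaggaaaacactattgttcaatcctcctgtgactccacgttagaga

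In the rn3 coordinates of the array files, the *Nos3* probe lies at chr4:6159286-6159345 on the minus strand and the *Plvap* probe at chr16:18674128-18674187, also on the minus strand. The *Plvap* probe is the richest of the 14 in G and C, at 70% of its bases, and the *Nos3* probe has 55%. The brighter *Vwf* probe aligns to chr4:162098933-162099422 and the *Emcn* probe to chr2:234944994-234945289, both on the plus strand and both across stretches longer than the probe. The dim *Vwf* probe, at chr4:162054469-162054528, was not well above background in either channel on any of the 6 arrays, so *Vwf* rests on 1 probe. The 2 *Flt1* probes, plus strand, lie at chr12:7954639-7971736 for the brighter one and chr12:8065567-8065626 for the dim one, which was well above background on 4 of 6 arrays in Cy5. For *Kdr* and *Eng* the files give no coordinates. A gene's value below is that of its brightest probe. By that probe all 10 genes were well above background in both channels on all 6 arrays, so their endothelial transcripts were measured in every pool.

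After a filter on dim probes, 12816 named genes were compared. Each array had 43379 spots, of which 66.8% to 74.8% in Cy5 and 65.0% to 70.0% in Cy3 were well above background. Arrays of the same age shared 1 slide, and each genotype kept 1 position on it, so age and slide, and genotype and position, cannot be told apart. The arrays labelled +/+ went against their label, which sets a +/+ pool against another. Their log2 ratios had an SD of 1.12 at 7 days and 1.29 at 3 days, against 0.17 and 0.18 on the Cy/Cy arrays. On them the median log2 ratio of 9 skeletal muscle genes was 3.92 and 4.16, that of 8 liver genes 4.39 and 5.02, and that of 6 genes of the thick ascending limb -3.54 and -3.97, at 7 and 3 days. Their Cy3 channel stood apart too. The summed log2 Cy3 level of the muscle genes was 15.60 and 14.71, against 10.42 to 10.88 on the other arrays. The Cy3 reference thus did not read alike on all 6 arrays, and the cause was not tested. Cy/Cy and Cy/+ pools were for that reason first set against the Cy3 reference of their own arrays, with the arrays labelled +/+ left out.

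In Cy/Cy kidneys none of the 10 genes passed the test against the +/+ reference, which with so few arrays does not show that they were equal. The log2 ratio of *Cdh5* read 0.12 for 7 days and 0.15 for 3 days, the highest of the group on both Cy/Cy arrays. *Kdr* had -0.13 on both arrays. Both genes thus kept their sign across ages, as did every other member except *Vwf* and *Eng*. *Nos3* had -0.18 at 7 days and -0.09 at 3 days, *Plvap* -0.07 and -0.19, and *Vwf* -0.19 and 0.06. *Eng* had 0.03 and -0.14, *Pecam1* -0.03 and -0.05, *Flt1* 0.03 and 0.07, *Tek* 0.06 and 0.04, and *Emcn* 0.06 and 0.01. The fitted means ran between -0.13 for *Nos3* and 0.13 for *Cdh5*, with standard errors of 0.07 to 0.10. With 95% confidence the interval for *Cdh5* was -0.03 to 0.30, and that for *Nos3* was -0.31 to 0.04. The limma test called 0 of the 10, and 0 had an unadjusted p under 0.05. Across all genes it called 0 of 12816, a background of 0%, with 1183 at an unadjusted p under 0.05. The median of the 10 was -0.048, against 0.0074 over all genes. In whole-kidney RNA, fewer endothelial cells and less RNA in each of them cannot be told apart.

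Cy/+ kidneys were further from the reference, in both directions, and this held over all genes too. The log2 ratios of all genes had an SD of 0.25 at 7 days and 0.35 at 3 days, against 0.17 and 0.18 on the Cy/Cy arrays. *Nos3* read lower than the reference in Cy/+ kidneys. Its log2 ratio was -0.38 at age 7 days and -0.43 at age 3 days, and both Cy/+ arrays lay below both Cy/Cy arrays. Its mean was -0.40 ± 0.07 (SE, n = 2 arrays), a ratio of 0.755, with adjusted p = 0.0352. The *Nos3* probe was printed as 10 spots, and the SD over its usable spots on an array was 0.02 to 0.05, so the reading within an array was tight. *Nos3* was the 1 member called of 10 (10%), next to 7.28% of all genes (933 of 12816). The call was lost with the array labelled +/+ of each age and an age term both added to the fit (-0.40, adjusted p = 0.107). It was also lost with the log ratios of the scanner software (-0.45, adjusted p = 0.110). Nor did it hold without any 1 of the 4 arrays, which left 1 genotype with 1 array. *Nos3* read -0.43 without the 7-day and -0.38 without the 3-day Cy/+ array. The direction was kept in all of these. *Nos3* also lay below 0 on the Cy/Cy arrays (-0.18 and -0.09) and on the arrays labelled +/+ (-0.63 and -0.60) at 7 and 3 days. With no dye swap, a dye bias and a difference from the reference cannot be told apart, for this or any gene. Relative to the arrays labelled +/+, *Nos3* in Cy/+ kidneys was 0.21 ± 0.11 (limma, adjusted p = 0.209), the opposite direction.

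Among the other members, *Vwf* read -0.42 at 7 days and -0.29 at 3 days in Cy/+ kidneys. Its mean of -0.36 ± 0.09 did not pass (adjusted p = 0.0654). *Cdh5* stood on the other side of the reference, with 0.27 and 0.30 and a mean of 0.28 ± 0.07, which did not pass either (adjusted p = 0.0601). A second *Cdh5* probe read 0.14 and 0.02 on the same arrays, so the size of the *Cdh5* difference depends on the probe. Under median centring in place of loess, *Vwf* read -0.0013 in Cy/+ kidneys (adjusted p = 0.993), and *Cdh5* read 0.53 and passed (adjusted p = 0.00187). *Eng* had -0.09 at 7 days and -0.36 at 3 days, with a mean of -0.23 ± 0.09 and adjusted p = 0.173. The angiopoietin receptor *Tek* had 0.22 at 7 days and -0.13 at 3 days, and *Pecam1* 0.24 and -0.01, so for both the 2 Cy/+ arrays lay on opposite sides of the reference. *Flt1* had 0.31 and 0.05, *Kdr* -0.08 and -0.05, *Emcn* 0.10 and -0.04, and *Plvap* -0.08 and -0.24. The 10 genes had a median of -0.018 in Cy/+ kidneys, against 0.015 over all genes, with 5 of the 10 below 0.

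**Figure D1:**
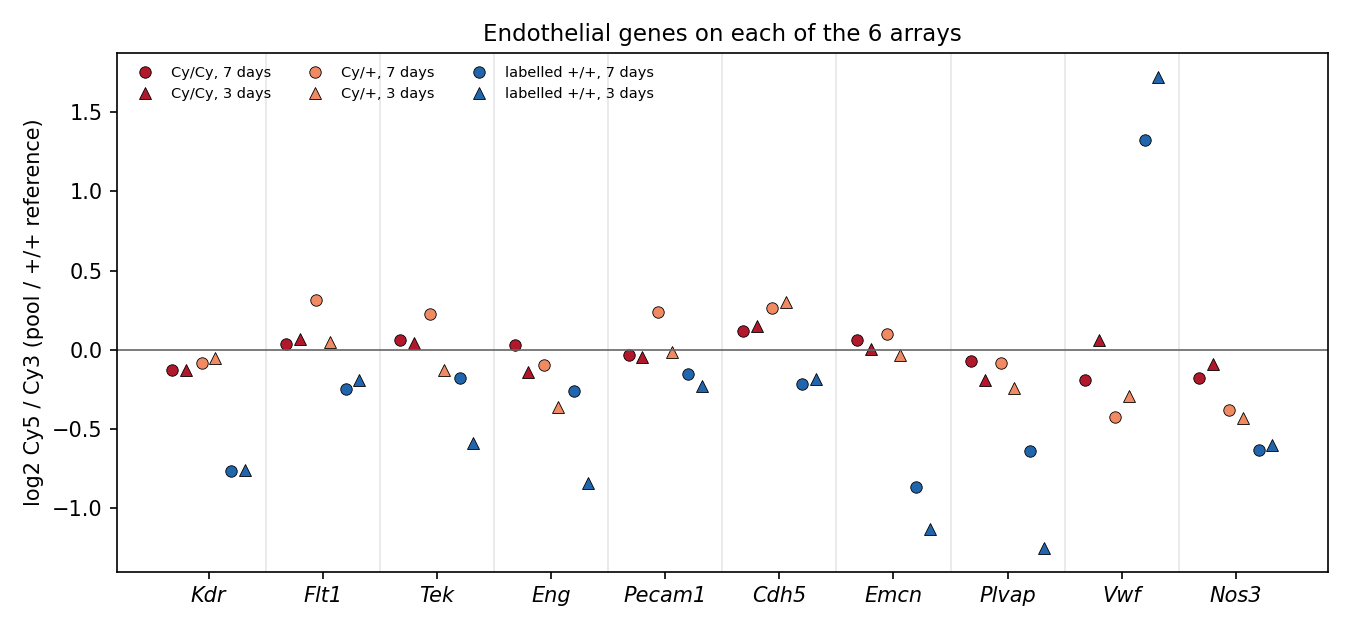
Log2 ratio of Cy5 (the named pool) over Cy3 (the +/+ reference of the same age) of the 10 endothelial genes, 1 point per array, with circles for 7 days and triangles for 3 days. Cy/Cy points lie between -0.19 and 0.15, Cy/+ points between -0.43 and 0.31, and the arrays labelled +/+ between -1.25 and 1.72, with *Vwf* alone above 0 on the arrays labelled +/+.

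The loess step, which removes a trend of the ratio with brightness, bears on these values because the members span a wide range of brightness. *Kdr* was brighter than 97.5% of the genes and *Flt1* brighter than 25.2%. With centring on the median in place of loess, the median of all genes against the reference stood at 0.25 in Cy/Cy and 0.30 in Cy/+ kidneys. *Kdr* then read 0.53 in Cy/Cy and 0.74 in Cy/+ kidneys and passed the test, but genes within 2.5 percentiles of its brightness had medians of 0.70 and 0.84. Relative to genes of like brightness, *Kdr* stood at -0.17 in Cy/Cy and -0.11 in Cy/+ kidneys under median centring, and at the same values, to the digits given, under loess. *Nos3* read -0.02 in Cy/+ kidneys under median centring (adjusted p = 0.91), where genes of like brightness had a median of 0.40. Its distance from them was -0.42 under both scalings. Loess subtracts a smooth trend with brightness, so distances from genes of like brightness hardly can differ between these scalings. Their agreement for *Kdr* and *Nos3* is therefore no support for either value. The direction of *Kdr*, *Eng* and *Plvap* against the reference thus turned with median centring in both genotypes, that of *Pecam1*, *Vwf* and *Nos3* turned in Cy/Cy kidneys, and the *Nos3* call in Cy/+ kidneys ended.

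**Figure D2:**
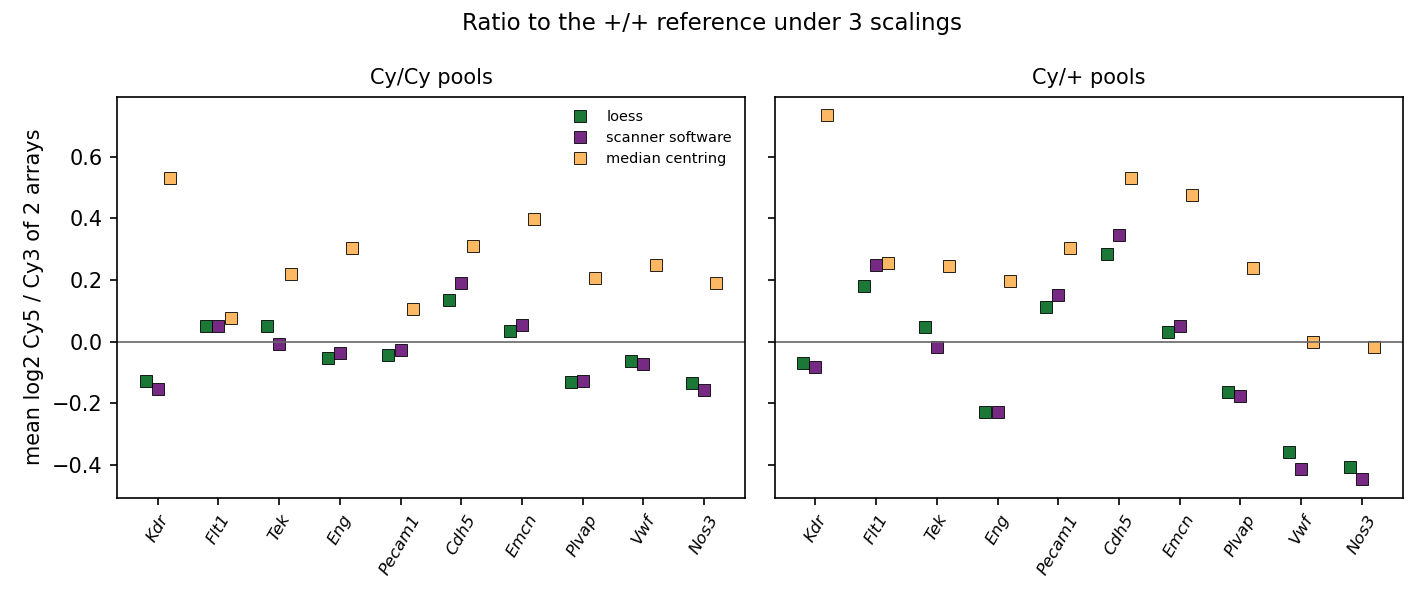
Mean log2 ratio of the 2 arrays of Cy/Cy (left) and Cy/+ pools (right) to the +/+ reference, for each endothelial gene under loess, the scanner software's log ratios and median centring. *Kdr*, the brightest member, moves most, to 0.53 in Cy/Cy and 0.74 in Cy/+ pools under median centring, while loess and the software lie close together for every gene.

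Between the mutant genotypes the same 4 arrays gave Cy/Cy minus Cy/+ differences in which a shared dye bias cancels. *Vwf* was 0.29 ± 0.13 and *Nos3* 0.27 ± 0.10 in this difference, with *Cdh5* at -0.15 ± 0.10 and *Pecam1* at -0.15 ± 0.12. None of the 10 passed. The smallest adjusted p of the group was 0.848 (*Nos3* and *Vwf*), and *Nos3* alone had an unadjusted p under 0.05 (0.0348, with a 95% interval of 0.03 to 0.51). For the others the interval held 0, that for *Tek* running from -0.34 to 0.34 and that for *Emcn* from -0.26 to 0.26. Over all genes the test also called 0 (0%), with 741 at an unadjusted p under 0.05. A difference between Cy/Cy and Cy/+ kidneys in *Nos3* was therefore not shown, although *Nos3* passed against the reference in Cy/+ and not in Cy/Cy kidneys.

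The comparison that the labels plan, mutant arrays against the arrays labelled +/+, gave large differences of mixed sign. *Vwf*, a secreted clotting factor, set itself apart: its log2 ratio was -0.19 in rats of 7 days and 0.06 at 3 days on the Cy/Cy arrays, and -0.42 and -0.29 on the Cy/+ arrays, against 1.33 and 1.72 on the arrays labelled +/+. Relative to those arrays it was lower by 1.59 ± 0.13 in Cy/Cy kidneys (adjusted p = 0.000713), and in Cy/+ kidneys it was lower by 1.88 ± 0.13 (adjusted p = 0.000418). The other 9 genes had negative ratios on both arrays labelled +/+. *Emcn*, a sialomucin of capillary and venous endothelium, had 0.06 and 0.01 on the Cy/Cy arrays at 7 and 3 days, against -0.86 and -1.13 on the arrays labelled +/+. Relative to those arrays it was higher by 1.03 ± 0.12 in both Cy/Cy (adjusted p = 0.0025) and Cy/+ kidneys (adjusted p = 0.00258). Against the Cy3 reference of their own arrays, *Emcn* read only 0.03 in both genotypes. *Plvap*, which forms the diaphragms of fenestrated capillaries, had -0.07 and -0.19 on the Cy/Cy arrays, against -0.64 and -1.25 on the arrays labelled +/+. Relative to the latter it was higher by 0.81 ± 0.16 in Cy/Cy and 0.78 ± 0.16 in Cy/+ kidneys. *Kdr* was higher than on the arrays labelled +/+ by 0.63 ± 0.11 in Cy/Cy and 0.69 ± 0.11 in Cy/+ kidneys. Against their own reference both genes lay below 0, *Plvap* at -0.13 in Cy/Cy and -0.16 in Cy/+ kidneys, *Kdr* at -0.13 and -0.07.

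In all, 6 of 10 members (60%) passed for Cy/Cy against the arrays labelled +/+, where 36.5% of all genes did. Of these *Emcn*, *Plvap*, *Kdr*, *Eng* and *Nos3* were higher, next to 12.1% of all genes, and *Vwf* was lower, next to 24.4%. For Cy/+, 5 of 10 passed, where 37.7% of all genes did. *Emcn*, *Plvap*, *Kdr* and *Cdh5* were higher (13.1% of all genes) and *Vwf* was lower (24.6% of all genes). *Eng* was at the threshold in Cy/Cy (0.50 ± 0.15, adjusted p = 0.0499) and did not pass in Cy/+ kidneys (0.32 ± 0.15, adjusted p = 0.143). The call for *Eng* was lost in 8 of 13 other ways of processing these arrays. Without either Cy/Cy array 2 members were called for Cy/Cy, and without either Cy/+ array 2 were called for Cy/+. With the software's log ratios 9 members were called in each genotype, 8 of them higher. Of all 12816 genes, 5399 were then called for Cy/Cy (2648 higher) and 5525 for Cy/+ (2802 higher). Among all genes called, 49.0% were then higher for Cy/Cy and 50.7% for Cy/+, against 33.2% and 34.7% here, and the median of all genes stood at 0.15 for Cy/Cy, against -0.053. *Vwf* and *Emcn* passed in each of the 13 alternatives in both genotypes. These differences moved with markers of other tissues on the arrays labelled +/+: all 9 muscle, 6 lung, 8 liver, 6 adipose and 12 macrophage genes measured were lower in Cy/Cy kidneys, and all 10 proximal tubule and 6 thick ascending limb genes were higher. Their part in the endothelial differences was not tested.

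**Figure D3:**
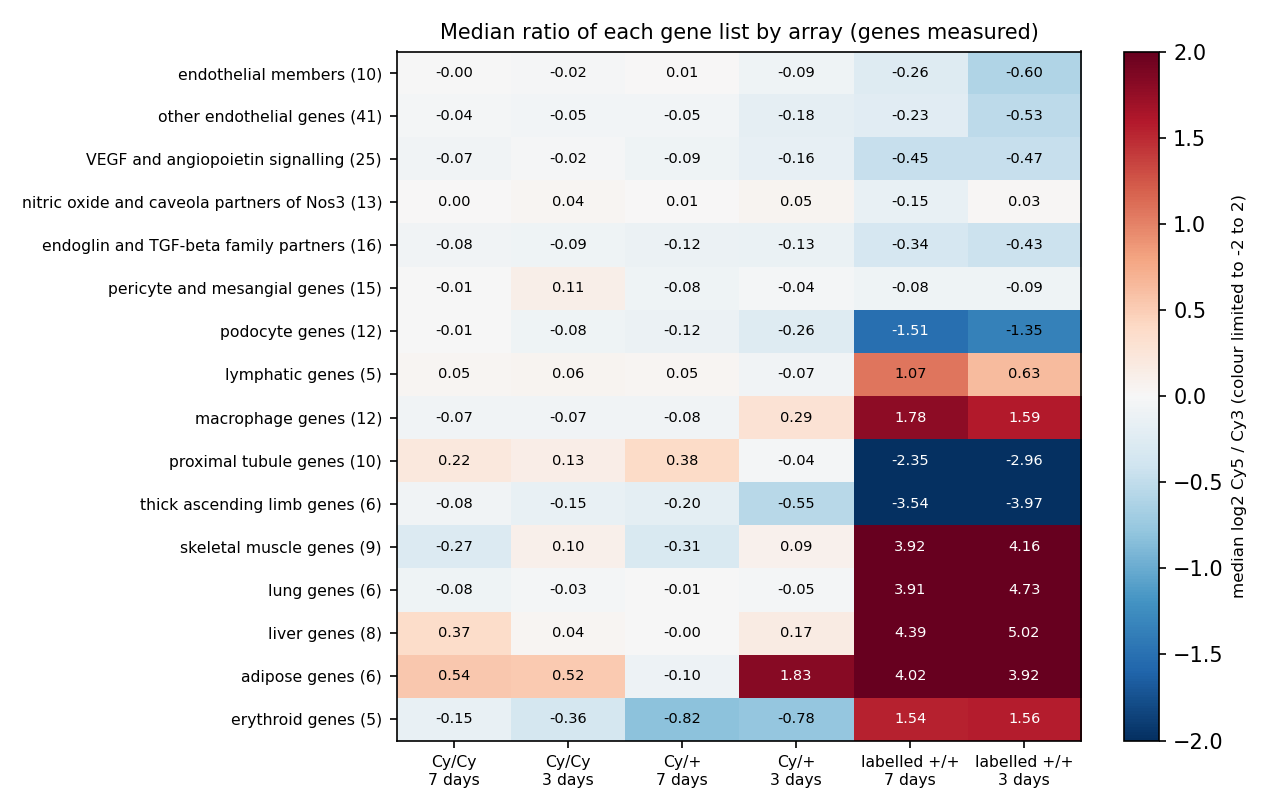
Median log2 ratio of Cy5 over Cy3 for the 10 endothelial genes (top line, "endothelial members") and 15 other gene lists on each array, with the number of genes measured in brackets. The arrays labelled +/+ carry high muscle, lung, liver and adipose medians and low tubule medians, while the endothelial medians there are -0.26 at 7 days and -0.60 at 3 days.

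The age comparison used the separate channels of the Cy/Cy and Cy/+ arrays, which gave 3 kidney pools at each age (Cy/Cy, Cy/+ and the +/+ reference). The pools of an age share arrays and a slide, so they are not independent repeats, although the fit treats them as such. *Plvap* had log2 signals of 10.33 in Cy/Cy, 10.29 in Cy/+ and 10.39 in reference pools at 7 days, against 9.95, 9.82 and 10.10 in the same pools at 3 days. The ages did not overlap. *Plvap* rose at 7 days by 0.38 ± 0.07 (SE), a ratio of 1.302, with adjusted p = 0.0361. *Cdh5* had 8.51 in Cy/Cy, 8.76 in Cy/+ and 8.44 in reference pools at 7 days, against 8.18, 8.48 and 8.10 at 3 days. Every pool was higher at 7 days, but the Cy/+ pool of 3 days lay above the reference pool of 7 days, so the ages overlapped. *Cdh5* rose by 0.32 ± 0.06 (adjusted p = 0.0418), a ratio of 1.25, and its second probe read 0.30 with adjusted p = 0.0564.

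*Flt1*, *Eng* and *Vwf* pointed the other way without passing. *Flt1*, which also occurs as a soluble decoy receptor for VEGF-A, had log2 signals of 7.30 in Cy/Cy, 7.63 in Cy/+ and 7.29 in reference pools at 7 days, against 7.84, 7.75 and 7.74 at 3 days. Its ages did not overlap, and its difference was -0.37 ± 0.10 (adjusted p = 0.0683). *Eng* had 10.41 in Cy/Cy, 10.34 in Cy/+ and 10.41 in reference pools at 7 days, against 10.80, 10.49 and 10.90 at 3 days, also without overlap, and a difference of -0.34 ± 0.09 (adjusted p = 0.0632). *Vwf* had 9.68, 9.16 and 9.73 at 7 days, against 9.89, 9.70 and 9.91 at 3 days, in Cy/Cy, Cy/+ and reference pools. Its difference was -0.31 ± 0.09 (adjusted p = 0.0872), and the Cy/+ pool, at -0.54, differed most between the ages. *Kdr* differed by -0.08 ± 0.06, *Nos3* by -0.09 ± 0.06, *Tek* by 0.10 ± 0.10, *Pecam1* by 0.05 ± 0.07 and *Emcn* by 0.05 ± 0.07.

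Thus 2 of 10 members passed, both higher at 7 days, where 9.61% of all genes passed (1231 of 12816). Without overlap between the ages, 2 members were lower at 7 days (*Flt1* and *Eng*), as were 15.4% of all genes, and 1 was higher (*Plvap*), as were 14.8%. The 10 genes had a median difference of -0.019, and all genes one of -0.0040. *Plvap* and *Cdh5* kept their direction in all 9 and 10 alternatives and passed in 5 and 4 of these. Without the Cy/Cy pool neither passed (adjusted p = 0.113 and 0.133), and without the Cy/+ pool *Flt1* and *Eng* passed as well (-0.49 and -0.44). Markers of macrophages moved between the ages too: 6 of 12 were lower at 7 days and none higher, with a median of -0.53. Of 5 erythroid genes 2 were lower (median -0.34), of 8 liver genes 1 was higher and 2 were lower, and 6 adipose genes had a median of -1.11 with none called. Their part in the endothelial values was not tested.

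**Figure D4:**
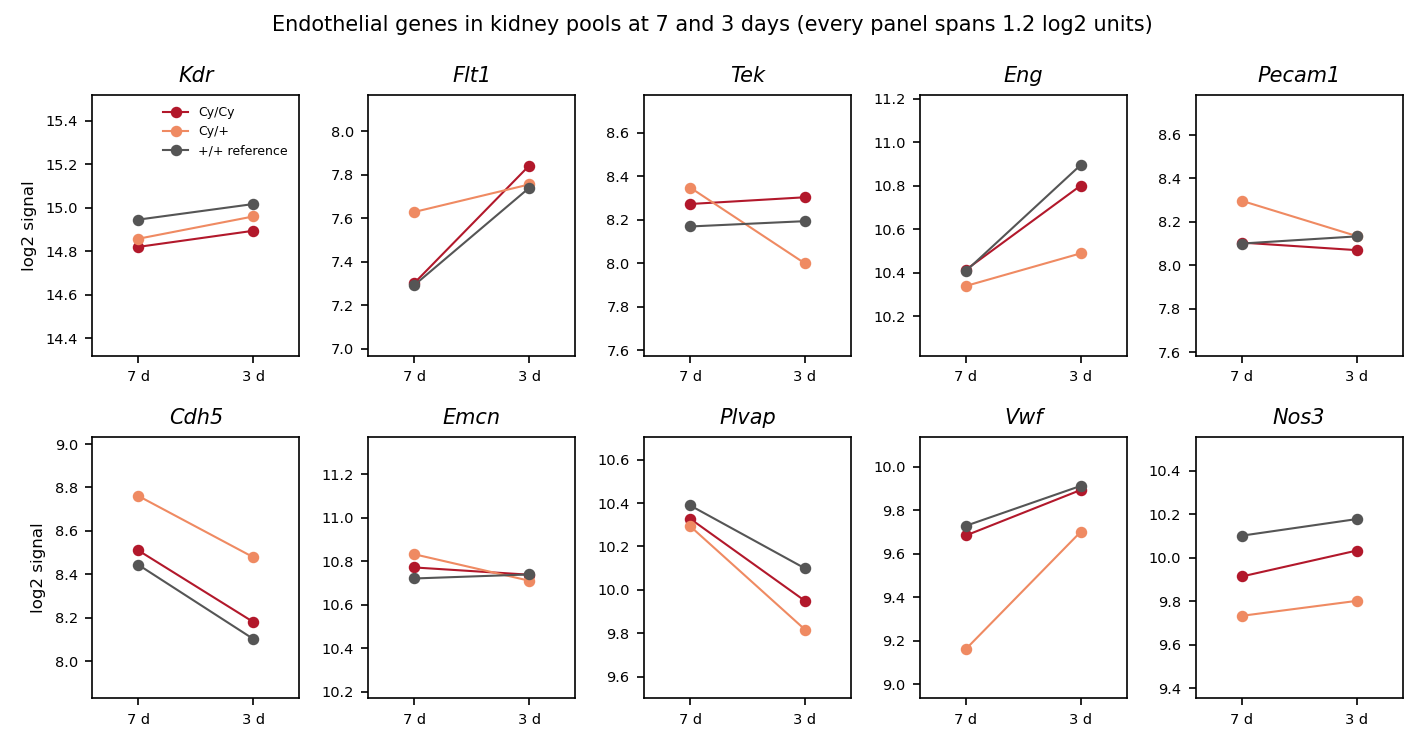
Log2 channel signal of each endothelial gene in the Cy/Cy, Cy/+ and +/+ reference pools at 7 days (left in each panel) and 3 days (right), with 1 line per pool and the same span on every vertical axis. *Plvap* and *Cdh5* are higher at 7 days in all 3 pools, *Flt1*, *Eng* and *Vwf* lower, and *Kdr* and *Nos3* keep the order of the pools with little difference between ages.

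The ligands and partners of these receptors were read from lists of related genes. Of 25 genes of VEGF and angiopoietin signalling measured, 1 was higher and 2 were lower in Cy/+ kidneys than in the reference, where 7.28% of all genes passed. Under median centring 9 were higher and none lower, where 7295 of all 12816 genes passed, 6358 of them higher. *Angpt2*, an angiopoietin that can oppose signalling through TEK, read 1.00 at 7 days and 1.23 at 3 days on the Cy/+ arrays and rose by 1.11 ± 0.08 (adjusted p = 0.00806). On the Cy/Cy arrays it had 0.54 and 0.48, a mean of 0.51 ± 0.08 that did not pass (adjusted p = 0.302). *Vegfa*, the main ligand of KDR, had -0.48 at 7 days and -0.65 at 3 days on the Cy/+ arrays and fell by 0.56 ± 0.08 (adjusted p = 0.0239), and the chemokine *Cxcl12* fell by 0.47 ± 0.09 (adjusted p = 0.0395). Under median centring *Angpt2* read 1.70, *Vegfa* -0.13 and *Cxcl12* 0.30, so the sign of *Cxcl12* turned. The list had a median of -0.15 in Cy/+ kidneys, against 0.015 over all genes.

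Of 16 partners of endoglin in the TGF-beta family, 4 fell and none rose in Cy/+ kidneys, next to 7.28% of all genes called. Under median centring 7 were higher and none lower. Most calls over all genes were higher there too (6358 of 7295, of 12816 genes tested). The 4 were *Acvrl1*, the type I receptor that works with endoglin (-0.43 ± 0.07), *Smad7*, an inhibitory Smad (-0.59 ± 0.12), and *Id1* and *Id3*, transcriptional inhibitors induced through Smads (-0.55 ± 0.07 and -0.61 ± 0.07). On the Cy/+ arrays *Id3* read -0.62 and -0.60 and *Id1* -0.53 and -0.58 at 7 and 3 days. The 4 genes were picked because their mean over these same arrays passed, so a shared sign on both is no further support. Under median centring *Acvrl1*, *Id1* and *Id3* turned to between 0.11 and 0.12 and *Smad7* stood at -0.05, while the median of all genes stood at 0.30. In Cy/Cy kidneys *Id1* had -0.29 ± 0.07 and *Acvrl1* -0.25 ± 0.07, and none of the 16 passed. Of 13 nitric oxide and caveola partners of *Nos3*, *Cav1*, a structural protein of caveolae that binds the enzyme, rose in Cy/+ kidneys (0.62 ± 0.11, adjusted p = 0.0375), and no other passed, next to 7.28% of all genes. Under median centring 8 of the 13 were higher and 1 was lower, where 7295 of all 12816 genes passed, 6358 of them higher.

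Of 41 other endothelial genes, 2 rose and 4 fell in Cy/+ kidneys, where 7.28% of all genes passed, and 0 passed in Cy/Cy kidneys, where 0% of all genes did. Under median centring 16 were higher and 1 was lower in Cy/Cy kidneys, where 6354 of all 12816 genes passed, 5291 of them higher. *Cav1* rose, as did the water channel *Aqp1* (0.40 ± 0.08). *Gja5*, a connexin of arterial endothelium, fell by 0.73 ± 0.14 (adjusted p = 0.0409), the endothelin receptor *Ednrb* by 0.54 ± 0.09 (adjusted p = 0.0344) and the adhesion molecule *Vcam1* by 0.47 ± 0.08 (adjusted p = 0.0359), with *Acvrl1* the fourth. Several of these genes are also expressed outside the endothelium, *Aqp1* in the proximal tubule among them. The median of the list was -0.12 in Cy/+ and -0.10 in Cy/Cy kidneys. Under median centring it was 0.31 in Cy/+ kidneys, against 0.30 over all genes, with 20 higher and none lower. Of all 12816 genes 7295 passed there, 6358 of them higher. None of these lists had a call in Cy/+ kidneys with the scanner software's log ratios, where 0 of all genes passed.

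Markers of other cells also differed in Cy/+ kidneys. Of all genes 7.28% were called in that comparison. Of 5 erythroid genes measured 4 fell, with a median of -0.82 and *Hbb*, the beta globin gene, at -1.36 ± 0.13. Of 12 podocyte genes, *Vegfa* among them, 2 fell, with a median of -0.26, and of 6 thick ascending limb genes 2 fell, with a median of -0.37. Of 12 macrophage genes 2 rose, of 10 proximal tubule genes 4 rose, and of 8 liver genes 2 rose. The 6 adipose genes had a median of -0.10 on the 7-day and 1.83 on the 3-day Cy/+ array. Smooth muscle and pericyte genes moved both ways, with *Tagln* at 0.65 ± 0.07 and *Cspg4* at -0.50 ± 0.10. Their part in the *Nos3* difference was not tested.

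Between 7 and 3 days, 3 of the 41 other endothelial genes rose at 7 days and 1 fell, a share close to the 9.61% of all genes called. Under 75th percentile scaling none of the 41 was called, nor any gene of the VEGF, *Nos3* and endoglin lists. *Tie1*, the partner receptor of TEK, rose by 0.55 ± 0.10 (adjusted p = 0.0362), the transcription factor *Gata2* by 0.42 ± 0.08 and *Ramp2*, a subunit of the adrenomedullin receptor, by 0.37 ± 0.07. *Aqp1* fell by 0.48 ± 0.07. In the VEGF and angiopoietin list *Tie1* and *Epas1*, a hypoxia-inducible factor (0.48 ± 0.10), rose and none fell. In the *Nos3* list *Cav2* (-0.66 ± 0.09) and *Gch1*, which makes the cofactor of nitric oxide synthases (-0.55 ± 0.11), fell at 7 days, and in the endoglin list 0 of 16 passed.

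The members did not share 1 profile. Over the 8 channel values of the Cy/Cy and Cy/+ arrays, the Pearson correlation of a member with the mean profile of the 10 ran from -0.80 for *Cdh5* to 0.85 for *Eng*, with *Nos3* at 0.73, *Kdr* and *Vwf* at 0.55 and 0.56, *Plvap* at -0.10 and *Pecam1* at -0.09. The 5 genes most like that mean profile were *Dcaf11* (0.974), *Ctsf* (0.970), *Aph1a* (0.970), *Npff* (0.966) and *Akr7a2* (0.966). These 8 values share arrays in pairs and slides in fours, so the correlations are a description only. *Vwf* covered the widest range of the members over these values, 0.83 on the log2 scale, followed by *Cdh5* with 0.73, and *Emcn* the narrowest, 0.12.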

How the data were processed

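Spot and local background signals were deposited as raw intensity read by the scanner, per the file headers (Agilent Feature Extraction 9.5.1.1). The software's deposited log10 ratios of red over green, per the file headers, served as an alternative after conversion to log2. With limma 3.58.1 (R 4.3.3), signals were corrected by normexp (offset 50) and loess, and spots of a probe averaged. Of 41012 probes, 30934 were kept: those well above background in at least 1 channel on 2 or more arrays. Accessions were matched to the RefSeq rat table (GRCr8). Samples were grouped by their labels. lmFit and eBayes were run with 2 residual degrees of freedom, and p-values adjusted by Benjamini-Hochberg over 12816 genes (threshold 0.05). For age, single channels (loess, then Aquantile) were compared with the pool as a block. Scaling, filter, probe choice, age term and single arrays were varied, and the fits were tested on simulated data. The members and lists were chosen with earlier results of these data known. The rule named all members, at most the 3 highest and 3 lowest genes of the other endothelial, VEGF and angiopoietin, pericyte and lymphatic lists, and the 5 genes most like the members. *Acvrl1*, *Smad7*, *Id1*, *Id3*, *Cav2*, *Gch1* and *Hbb* fell outside it and were named after their values were seen.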

Additional observations from a re-analysis of the deposited data

How the results depend on the processing

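The number of members called moved with the processing in every comparison but Cy/Cy against Cy/+, where it was 0 throughout. For Cy/Cy against its reference it was 3 under median centring, in place of 0. For Cy/+ it was 4 in place of 1 under median centring, and 3 with age as a term. It was 0 for Cy/+ with the software's log ratios, or with all 6 arrays and age as a term. Without single arrays it was 0 throughout for both. Against the arrays labelled +/+ it was 9 with the software's log ratios for both genotypes, and 2 to 7 without single arrays. For 7 against 3 days it was 1 with the Cy3 of the array labelled +/+ added or with the other probes of *Flt1*, *Tek* and *Cdh5* (chosen after seeing the data), and 0 under 75th percentile scaling, in the Cy5 of the mutant pools alone and without the pool block. Without the Cy/Cy or the Cy/+ pool it was 0 to 4. Where a lost call came with fewer arrays, fewer samples were fitted, and otherwise the cause was not tested. Over all genes, calls in Cy/+ kidneys (933) were 7295 under median centring (87.2% higher, against 61.2%) and 1979 with age as a term. With all 6 arrays and age as a term they were 7, and with the software's log ratios 0. Without single arrays they were fewer as well. In Cy/Cy kidneys they were 6354 under median centring and at most 9 otherwise, and for Cy/Cy against Cy/+ (0) they were 7 under median centring and 75 without the 7-day Cy/+ array. For age (1231) they were 12 under percentile scaling, 360 without the block and 22 to 2721 without a pool. Against the arrays labelled +/+ the share of higher calls was 49.0% for Cy/Cy and 50.7% for Cy/+ with the software's log ratios, against 33.2% and 34.7%, and calls over all genes fell to as few as 2103 and 2257 without single arrays.

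Signs turned 36 times among 728 member values. Under median centring in Cy/Cy kidneys, *Pecam1* read 0.11, *Kdr* 0.53, *Vwf* 0.25, *Eng* 0.30, *Plvap* 0.21 and *Nos3* 0.19. In Cy/+ kidneys *Kdr* read 0.74, *Eng* 0.20 and *Plvap* 0.24, and in Cy/Cy against Cy/+ *Tek* read -0.024, *Emcn* -0.077 and *Plvap* -0.033. *Tek* also turned with the software's log ratios (-0.0058 in Cy/Cy and -0.016 in Cy/+ kidneys), in Cy/Cy kidneys with the mean of its probes (-0.031) or its other probe (-0.11), and in Cy/Cy against Cy/+ with offset 16 (-0.0019), the mean of its probes (-0.081) and its other probe (-0.16). *Emcn* turned there with offset 16 (-0.0011). *Flt1* turned with its other probe in Cy/+ kidneys (-0.016) and in Cy/Cy against Cy/+ (0.12), and *Pecam1* for age with the added Cy3 (-0.011). Without single arrays, values on both sides of 0 were seen in Cy/Cy kidneys for *Eng* and *Vwf*, in Cy/+ kidneys for *Pecam1*, *Tek* and *Emcn*, in Cy/Cy against Cy/+ for *Flt1*, *Tek*, *Emcn* and *Plvap*, and for age in *Tek*. These ran from -0.14 to 0.031 and -0.19 to 0.064 in Cy/Cy kidneys, from -0.013 to 0.24, -0.13 to 0.22 and -0.035 to 0.10 in Cy/+ kidneys, from -0.26 to 0.0035, -0.17 to 0.18, -0.067 to 0.069 and -0.047 to 0.11 in Cy/Cy against Cy/+, and from -0.028 to 0.16 for age. Signal over background limits the dim probes of *Vwf*, *Flt1* and *Tek*, and 2 arrays a genotype limit every value.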
